A study of Mus musculus with 6 samples.

Results

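The comparison described here set nigral tissue that had received the toxin 6-hydroxydopamine (6-OHDA) and then Engrailed 2 protein (En2) against nigral tissue that had received 6-OHDA and vehicle. It used 2 of the 6 samples of the series, 1 per group, both taken from mice of the genotype wt, 8 weeks old. The tissue was substantia nigra pars compacta (SNpc), where the dopaminergic neurons of the nigrostriatal path lie. In each group 2 µl was injected 30 min after 6-OHDA, per the labels. In the group 6-OHDA then En2 this volume held 300 ng of recombinant En2 made in bacteria, at 4 µM, together with 3 µg of colominic acid. In the group 6-OHDA it was saline. En2 protein, colominic acid and any other component of the bacterial preparation were thus present in the same sample and cannot be told apart. The tissue was punched at 1 mm from frozen coronal slices 2 mm thick. The number of animals behind each sample, the 6-OHDA dose and the time of collection are not given in the sources used here.

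6-OHDA is taken up through dopamine and noradrenaline transporters and kills catecholaminergic neurons by oxidation. Engrailed proteins are homeodomain transcription factors that midbrain dopaminergic neurons express through life and that can pass between cells. Brain tissue meets injury or microbial products through pattern receptors on microglia, astrocytes and endothelium. Toll-like receptors signal through MYD88 to NF-kappaB, which turns on cytokine and chemokine genes, and through TICAM1 to interferon regulatory factors (IRFs). Type I interferon then acts through JAK kinases, STAT2 and IRF9 on genes with an interferon-stimulated response element (ISRE). Resting microglia are known by a set of homeostatic genes, among them the chemokine receptor gene Cx3cr1 and the purinergic receptor gene P2ry12, whose transcripts decline when the cells are activated.

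The 6-OHDA library held 15927206 reads over 37991 genes and the 6-OHDA then En2 library 19044672. Reads were scaled by the median of ratios, and each ratio below is the log2 of scaled reads after 6-OHDA then En2 over those after 6-OHDA, so that a positive value is higher after En2. The range in parentheses after a ratio is an exact 95% counting interval. It covers counting error in these libraries only, because reads are not independent molecules and each group had 1 sample, which leaves no spread between replicates and no test of significance. A gene was measured with at least 20 reads in 1 library, and called higher or lower where its log2 ratio was at least 1 in size and the interval excluded 0. Of 15747 measured genes, 927 passed this rule (5.89%): 734 were higher (4.66%) and 193 were lower (1.23%). The median log2 ratio over measured genes was 0.01, 51.6% of them had a ratio above 0, and 85.3% lay within 0.5 of 0. Among the higher genes 348 reached 4-fold and 113 reached 16-fold, against 27 and 2 of the lower genes.

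Taken as a share of all reads, the higher genes grew from 0.671% after 6-OHDA to 2.95% after 6-OHDA then En2, while the lower genes held 0.163% and 0.0619%. Most higher genes started low: their median was 35.5 reads after 6-OHDA, against 348 over all measured genes. A gene with few reads after 6-OHDA could be measured only if it was high after En2. For some lists, counts of higher genes are therefore also given below for genes with at least 20 reads after 6-OHDA. Over all such genes 3.04% (460 of 15126) were higher. List counts given without this restriction can include genes measured only because they were high after En2. The authors' deposited table, a comparison of 1 library with 1, gave an adjusted p under 0.05 to 465 genes with a fold above 1 and to 39 with a fold below 1. Of the 927 genes past the rule of size, 440 had such an adjusted p in the authors' deposited table.

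**Figure D1:**
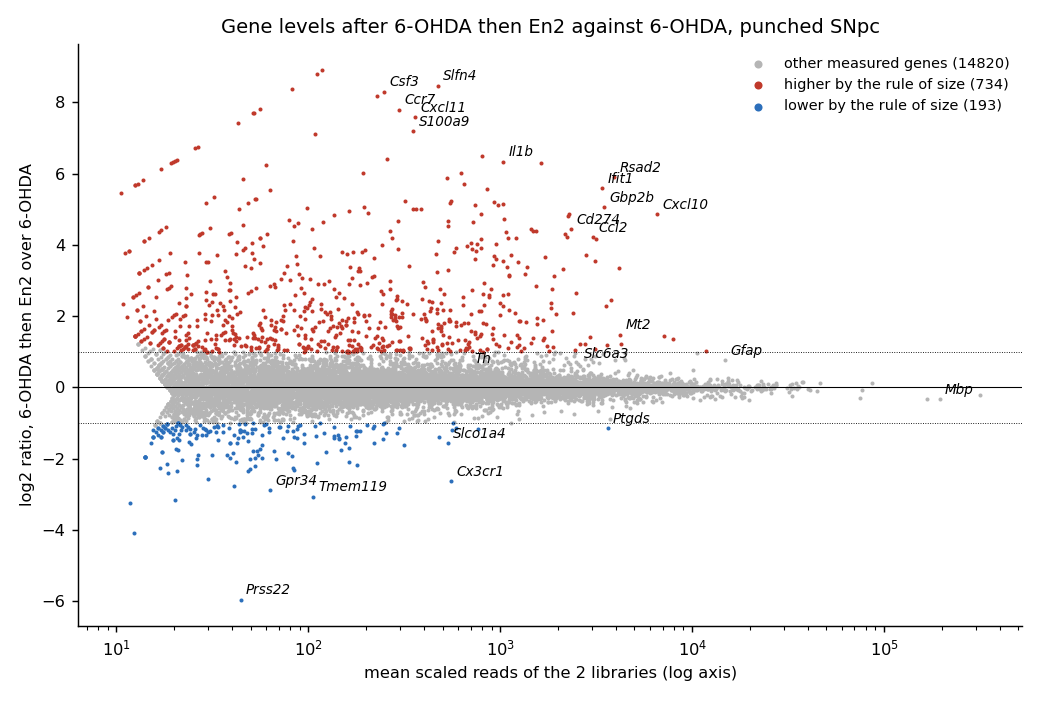
Log2 ratio of 6-OHDA then En2 over 6-OHDA (vertical axis) against the mean of the scaled reads in the 2 libraries (horizontal, log axis), 1 point per measured gene. The 734 higher genes reach further from 0 than the 193 lower ones, and most genes of every level lie near 0 (85.3% of all measured genes within 0.5 of it), with Cxcl10, Rsad2 and Ccl2 among the abundant genes that do not; dotted lines mark a log2 ratio of 1 in size.

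The promoters of some genes that led the comparison carry the recognition letters of interferon-activated factors or of NF-kappaB. The 300-base windows below, from 250 bases before to 50 after the transcription start, are shown because their genes were among the 25 with the largest lower interval end and their windows hold a match. Of these 25 genes 19 had a window in the table, and 6 of the 19 held a match; of the 25 leading lower genes 19 had a window and 1, P2ry12, held a kappaB match. They come from RefSeq on GRCm38.p6, 5′ to 3′ on the gene's strand. Capitals mark a match, read on either strand, to the ISRE letters (GAAA, any 2 bases, GAAA) or to the kappaB letters (GGGA, any 2 bases, TTCC). Rsad2 lies at chr12:26456403-26456702 (minus strand), Ifit1 at chr19:34640639-34640938 (plus), Tgtp2 at chr11:49064163-49064462 (minus), Gbp2b at chr3:142594597-142594896 (plus), Cxcl10 at chr5:92348840-92349139 (minus) and Cxcl1 at chr5:90890995-90891294 (plus).
Rsad2: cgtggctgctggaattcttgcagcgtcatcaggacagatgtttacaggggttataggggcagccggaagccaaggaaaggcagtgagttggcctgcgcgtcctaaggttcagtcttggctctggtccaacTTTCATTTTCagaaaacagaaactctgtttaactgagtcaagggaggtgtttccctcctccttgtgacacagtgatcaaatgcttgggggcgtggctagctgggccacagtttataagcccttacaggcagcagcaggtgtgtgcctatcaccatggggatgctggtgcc
Ifit1: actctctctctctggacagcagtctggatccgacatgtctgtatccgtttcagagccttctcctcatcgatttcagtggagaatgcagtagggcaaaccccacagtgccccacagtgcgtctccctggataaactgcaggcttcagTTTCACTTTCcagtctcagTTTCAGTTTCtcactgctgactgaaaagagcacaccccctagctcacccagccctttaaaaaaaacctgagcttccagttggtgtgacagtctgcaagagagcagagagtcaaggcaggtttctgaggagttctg
Tgtp2: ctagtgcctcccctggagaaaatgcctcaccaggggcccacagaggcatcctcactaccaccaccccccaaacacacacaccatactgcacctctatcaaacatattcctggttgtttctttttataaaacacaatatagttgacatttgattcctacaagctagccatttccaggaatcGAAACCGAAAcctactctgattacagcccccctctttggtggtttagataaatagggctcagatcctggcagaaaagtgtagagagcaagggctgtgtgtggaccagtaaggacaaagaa
Gbp2b: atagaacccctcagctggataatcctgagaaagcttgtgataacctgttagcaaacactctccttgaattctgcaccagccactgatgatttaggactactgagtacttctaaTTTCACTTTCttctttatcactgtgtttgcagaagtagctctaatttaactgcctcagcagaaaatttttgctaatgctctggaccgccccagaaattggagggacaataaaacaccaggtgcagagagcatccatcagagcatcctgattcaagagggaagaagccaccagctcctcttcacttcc
Cxcl10: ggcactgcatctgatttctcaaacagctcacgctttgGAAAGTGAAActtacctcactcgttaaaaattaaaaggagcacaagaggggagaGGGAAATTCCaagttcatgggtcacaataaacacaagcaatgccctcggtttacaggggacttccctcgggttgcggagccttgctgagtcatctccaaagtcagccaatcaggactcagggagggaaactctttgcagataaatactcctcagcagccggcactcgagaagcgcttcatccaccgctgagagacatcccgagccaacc
Cxcl1: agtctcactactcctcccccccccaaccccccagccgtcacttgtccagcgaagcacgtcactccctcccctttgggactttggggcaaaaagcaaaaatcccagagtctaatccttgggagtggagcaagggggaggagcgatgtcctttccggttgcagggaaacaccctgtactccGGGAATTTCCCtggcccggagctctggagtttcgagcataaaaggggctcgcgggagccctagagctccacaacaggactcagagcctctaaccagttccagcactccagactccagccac

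Read against these windows, the ISRE letters began 120 bases before the start in Rsad2, at 104 and 85 bases before it in Ifit1, 70 bases before it in Tgtp2, which encodes a GTPase that interferon gamma induces, and 137 bases before it in Gbp2b. The Cxcl10 window holds an ISRE match 213 bases and a kappaB match 159 bases before the start. In Cxcl1 a palindromic stretch gives overlapping kappaB matches that begin 71 and 70 bases before the start. Over the whole promoter table the ISRE letters were found in 3.99% of 27025 genes and in 3.85% of the 11189 measured genes with a window. They were found in 94 of 507 higher genes with a window (18.5%), in 26.8% of those 4-fold or more higher, in 32.1% of those 16-fold or more higher and in 4 of 134 lower genes (2.99%). The kappaB letters were found in 1.63% of all genes in the table, 3.94% of higher genes, 8.64% of those 16-fold or more higher and 2.24% of lower genes. Among lists, the ISRE letters were in 9 of 10 windows of guanylate-binding and immunity-related GTPases and in 20 of 38 windows of antiviral genes (52.6%), while the kappaB letters were in 4 of 17 windows of chemokine ligands (23.5%). Neither set of letters was found in the windows of Slfn4, Il1b, Oasl1, Il12b, Tnip3, S100a8, S100a9 or Cx3cr1, among others. A match describes letters and not the binding of a factor.

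Pattern receptors and their adaptors came first in the order of signalling. Of 22 measured genes of the Toll-like receptor pathway 6 were higher and 2 lower (median 0.26), and all 22 had at least 20 reads after 6-OHDA. Cd14, the co-receptor that passes lipopolysaccharide to TLR4, had 625 reads after 6-OHDA and 4651 after 6-OHDA then En2, a log2 ratio of 2.66 (2.54 to 2.78). Tlr2, a receptor for bacterial lipoproteins, had 549 and 3359 reads (log2 ratio 2.38, interval 2.25 to 2.51). Both were higher after En2, as were the receptor for double-stranded RNA Tlr3, at 1.86 (1.72 to 2.00), the adaptor Myd88, at 1.77 (1.55 to 2.01), the inhibitory kinase Irak3, at 1.66 (1.24 to 2.12), and the lipopolysaccharide-binding protein gene Lbp, at 1.10 (0.50 to 1.76). Tlr4 itself was little expressed, with 24 and 36 reads, and its interval spanned 0. The lower pair were receptors for RNA in endosomes. Tlr13, which in mice senses bacterial ribosomal RNA, had 212 and 73 reads (log2 ratio -1.76, interval -2.18 to -1.38), and Tlr7, which senses single-stranded RNA, had 207 and 115 reads (log2 ratio -1.08, interval -1.42 to -0.75).

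NF-kappaB genes were higher in most cases. Of 28 measured subunits, kinases and inhibitors 16 were higher and 0 lower (median 1.56). Of the 26 with at least 20 reads after 6-OHDA, 14 were higher. Tnfaip3, which encodes the deubiquitinase A20 and ends NF-kappaB signalling, had 208 reads after 6-OHDA and 4566 after 6-OHDA then En2 (log2 ratio 4.22, interval 4.02 to 4.43). Nfkbia, which encodes IkappaB-alpha, had 649 and 2846 reads (log2 ratio 1.90, interval 1.78 to 2.02). Tnip3, a partner of A20, had 1 read after 6-OHDA and 494 after 6-OHDA then En2 (log2 ratio 8.17, interval 6.23 to 14.02). Some other inhibitors were below the rule: Tnip1 was at 0.87 (0.72 to 1.03), Tnip2 at 0.67 (0.50 to 0.85), Nfkbib at 0.33 (-0.05 to 0.73) and Cyld at 0.14 (0.05 to 0.22). Nfkb2 and Relb of the non-canonical pathway were at 3.13 (2.68 to 3.64) and 2.20 (1.88 to 2.55), and Nfkb1 and Rel at 1.24 (1.05 to 1.43) and 1.53 (0.99 to 2.12). Rela, the main transactivating subunit, was at 0.88 (0.73 to 1.04) and so below the size rule, and the kinase genes Ikbkg and Chuk were at 0.01 (-0.12 to 0.13) and 0.10 (-0.04 to 0.24).

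Most interleukin, TNF and colony-stimulating factor genes were higher in the En2 library. Of 27 measured genes 19 were higher and 0 lower (median 3.22), and of the 18 with at least 20 reads after 6-OHDA 11 were higher. Tnf, the early macrophage cytokine, had 73 reads after 6-OHDA and 1443 after 6-OHDA then En2 (log2 ratio 4.06, interval 3.73 to 4.43). Il1a, the alarm form of interleukin 1, had 67 and 1195 reads (log2 ratio 3.91, interval 3.57 to 4.30), and the receptor antagonist gene Il1rn had 192 and 4486 reads (log2 ratio 4.31, interval 4.10 to 4.53). Il6, the cytokine that drives the acute phase, had 20 and 767 reads, a scaled ratio of 32.6-fold with a log2 interval of 4.39 to 5.75. These agonist genes and the antagonist gene were higher in the En2 library. Il12b, the shared chain of interleukins 12 and 23, had 22 and 1374 reads (log2 ratio 5.70, interval 5.13 to 6.41), while its partner chain Il12a had 7 and 4 reads. Il23a, the other partner of this chain, had 12 and 32 reads (log2 ratio 1.15, interval 0.19 to 2.27), and did not pass the rule with 5 in place of 0.5 added to each scaled count. Anti-inflammatory Il10 had 0 and 45 reads, which is at least 12.8-fold higher against a floor of 3 reads per library. On the same floor, Il27, which encodes a chain of interleukin 27, was at least 12.2-fold higher with 43 reads, and Il1f9, an interleukin 36 gene, at least 50.8-fold with 179. Lif, a gp130 cytokine, had 83 and 916 reads (log2 ratio 3.22, interval 2.91 to 3.57). The abundant members Il33 and Csf1, the latter a survival factor of microglia, were at 0.89 (0.81 to 0.98) and 0.89 (0.81 to 0.96) and did not reach the size rule. Il2 had the ratio furthest below 0 of the list apart from genes too low to measure, at -0.54 (-0.96 to -0.12).

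Receptors and decoys for these cytokines were higher in 16 of 28 measured genes and lower in 0, with a median of 1.18. Il18rap, the accessory chain of the interleukin 18 receptor, had 5 reads after 6-OHDA and 116 after 6-OHDA then En2 (log2 ratio 4.18, interval 3.04 to 5.95), and the decoy receptor Il1r2 had 12 and 101 reads (log2 ratio 2.79, interval 1.97 to 3.84). Osmr, the oncostatin M receptor that astrocytes express, had 642 and 2613 reads (log2 ratio 1.79, interval 1.67 to 1.92). The signal-transducing chains with the most reads did not pass the rule: Il6st was at 0.51 (0.43 to 0.58), Lifr at -0.10 (-0.18 to -0.02) and Il1rap at 0.01 (-0.07 to 0.10). Csf1r, the receptor that keeps microglia alive, had 661 and 494 reads (log2 ratio -0.65, interval -0.82 to -0.48).

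Chemokine ligands that attract monocytes, T cells and neutrophils were all represented among the higher genes. Of 25 measured ligands 15 were higher and 0 lower (median 1.89), and 11 of the 19 with at least 20 reads after 6-OHDA were higher. Among CXCR3 ligands, which interferon induces and which attract T cells, Cxcl11 had 3 and 778 reads (log2 ratio 7.58, interval 6.23 to 10.07) and Cxcl9 had 2 and 134 (log2 ratio 5.54, interval 3.95 to 8.89). Cxcl10 of the same family had 399 and 13688 reads (log2 ratio 4.87, interval 4.72 to 5.01). The gene annotation used here gives Cxcl11 as a polymorphic pseudogene, and whether its transcript encodes a working ligand was not tested. Among CXCR2 ligands, which attract neutrophils, Cxcl1 had 45 reads after 6-OHDA and 1953 after 6-OHDA then En2 (log2 ratio 5.19, interval 4.78 to 5.67) and Cxcl2 had 26 and 1166 reads (log2 ratio 5.23, interval 4.69 to 5.87). Ccl2, the main monocyte attractant, had 286 and 6226 reads (log2 ratio 4.21, interval 4.04 to 4.39), a level of 15.6 and 290 RPKM, the usual unit of reads scaled by depth and exon length. Ccl3 and Ccl4, which microglia release early, were at 3.32 (3.16 to 3.48) and 3.92 (3.62 to 4.25). Cx3cl1, the neuronal ligand of CX3CR1, had 4228 and 5193 reads (log2 ratio 0.06, interval 0.00 to 0.12), and Cxcl12, which vessels and meninges make, had 696 and 419 reads (log2 ratio -0.96, interval -1.14 to -0.79), just short of the size rule on the low side.

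Chemokine receptors went in both directions, with 5 of 10 measured higher and 2 lower. Ccr7, a receptor of migrating dendritic cells, had 2 and 642 reads (log2 ratio 7.79, interval 6.23 to 11.14), and Cxcr2, the receptor by which neutrophils follow CXCL1, had 1 and 235 (log2 ratio 7.10, interval 5.15 to 12.95). Ccrl2, an atypical receptor of activated myeloid cells and endothelium, had 51 and 1510 reads (log2 ratio 4.64, interval 4.25 to 5.09). Ccr1 and Ccr2 were higher at 1.87 (1.29 to 2.52) and 2.54 (1.17 to 4.64), the latter from 4 and 30 reads. On the lower side, Cx3cr1, the receptor that resting microglia carry for the neuronal ligand CX3CL1, had 875 and 166 reads (log2 ratio -2.63, interval -2.88 to -2.39).

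**Figure D2:**
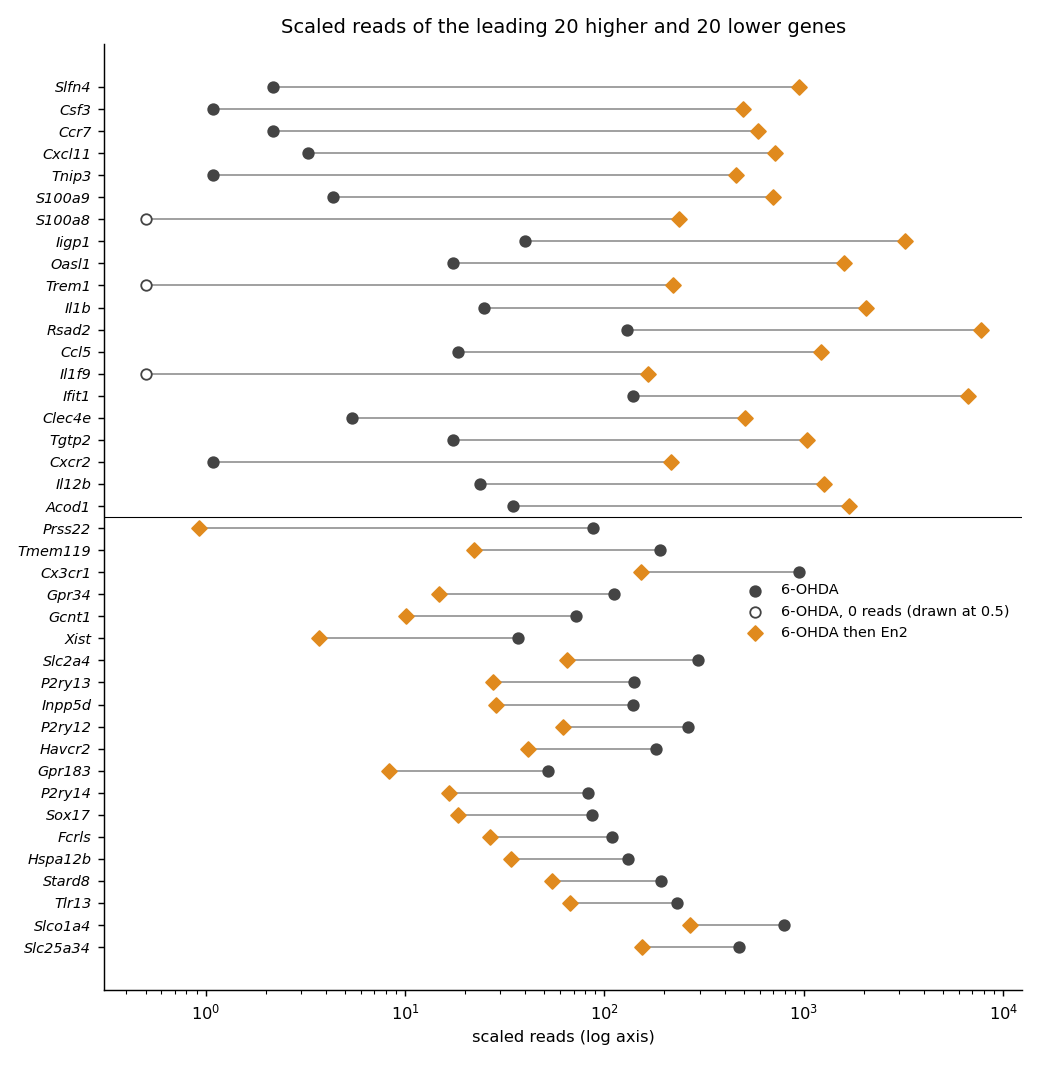
Scaled reads (horizontal, log axis) of the 20 higher and 20 lower genes with the largest conservative interval end among those reported by name, for 6-OHDA (circles) and 6-OHDA then En2 (diamonds); an open circle stands for 0 reads and is drawn at 0.5. Immune genes fill the upper group, with Rsad2 and Ifit1 the furthest right, and the lower group holds Tmem119, Cx3cr1, Gpr34 and other genes of microglia.

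Interferon genes themselves had few reads, while genes that interferon induces had many. Ifnb1 had 0 reads after 6-OHDA and 14 after 6-OHDA then En2, and Ifng had 0 and 4, both under the minimum for measurement. Of the receptor chains Ifnar2 was higher, with 149 and 363 reads (log2 ratio 1.05, interval 0.77 to 1.34), and Ifnar1, Ifngr1 and Ifngr2 had ratios of -0.01 (-0.14 to 0.12), 0.01 (-0.21 to 0.23) and 0.06 (-0.09 to 0.21). Among IRF and STAT factors 9 of 14 measured were higher and 0 lower (median 1.51). Irf7, which amplifies type I interferon, had 37 reads after 6-OHDA and 1117 after 6-OHDA then En2 (log2 ratio 4.67, interval 4.21 to 5.20). Irf1, which responds to interferon gamma and NF-kappaB, had 142 and 1810 reads (log2 ratio 3.43, interval 3.19 to 3.70). Of the factor that binds the ISRE, the components Stat2, at 2.22 (2.09 to 2.35), and Irf9, at 2.17 (2.02 to 2.34), were higher. Irf3 and Stat6 had intervals that spanned 0. Of 16 measured JAK kinase and cytokine feedback genes 6 were higher and 0 lower (median 0.53). The feedback inhibitors among them included Socs1, at 8 and 171 reads (log2 ratio 4.11, interval 3.17 to 5.42) and Socs3, which limits gp130 signals, at 436 and 3497 reads (log2 ratio 2.77, interval 2.63 to 2.92). Socs2 and Cish were higher as well, at 1.68 (1.46 to 1.91) and 1.17 (0.89 to 1.46), while Socs4, Socs5, Socs6, Socs7, Pias1 and Pias3 had ratios between -0.23 and 0.30. The kinases did not pass the rule: Jak2 was at 0.85 (0.71 to 1.00), Jak3 at 0.77 (0.40 to 1.16), Jak1 at 0.27 (0.19 to 0.35) and Tyk2 at 0.14 (-0.12 to 0.41).

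Antiviral genes induced by interferon held more higher genes than any other list. In it 47 of 51 measured genes were higher and 0 lower (median 3.40), and of the 39 with at least 20 reads after 6-OHDA 35 were higher. Ifit1, which binds viral RNA caps, had 128 reads after 6-OHDA and 7230 after 6-OHDA then En2 (log2 ratio 5.58, interval 5.33 to 5.85). Oasl1, a relative of the oligoadenylate synthetases that restrains Irf7 translation, had 16 and 1728 reads (log2 ratio 6.48, interval 5.82 to 7.33). Isg15, a ubiquitin-like protein, had 38 and 1557 reads (log2 ratio 5.11, interval 4.66 to 5.63), and Usp18, the protease that removes it, had 15 and 677 reads (log2 ratio 5.22, interval 4.53 to 6.11). Sensors of cytoplasmic RNA were higher as well, with Ifih1 (MDA5) at 3.97 (3.65 to 4.34) and Ddx58 (RIG-I) at 3.37 (3.15 to 3.60). The myxovirus resistance genes Mx1 and Mx2 were at 5.14 (4.76 to 5.58) and 5.11 (4.72 to 5.56). The 4 measured genes below the rule were Oas1c, at 0.73 (0.18 to 1.30), Tdrd7, at 0.71 (0.56 to 0.87), Adar, at 0.29 (0.24 to 0.35), and Ifi27, at 0.23 (0.00 to 0.47). The list summed to 729 CPM (counts scaled by depth to the usual common total) after 6-OHDA and 5018 CPM after 6-OHDA then En2. Members of the Oas, Ifit, Trim30, Ifi20x, Schlafen and guanylate-binding families are near-identical copies in places, and the split of reads among them is uncertain.

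All 17 measured guanylate-binding proteins (GBPs) and immunity-related GTPases, which attack the vacuoles of intracellular pathogens, were higher, with a median of 4.45. Of the 14 with at least 20 reads after 6-OHDA, 14 were higher. Gbp2b had 188 reads after 6-OHDA and 7341 after 6-OHDA then En2 (log2 ratio 5.05, interval 4.84 to 5.27), Iigp1 had 37 and 3486 reads (log2 ratio 6.31, interval 5.86 to 6.83) and Irgm1, the regulator with the most reads, had 686 and 8163 reads (log2 ratio 3.34, interval 3.23 to 3.45). Gbp11 had the smallest ratio, at 2.11 (1.34 to 3.05), so that the whole family lay above a log2 ratio of 2. The 7 measured Schlafen genes, which act on tRNA and on the growth of immune cells, were also higher, with a median of 4.18; 4 of them had at least 20 reads after 6-OHDA. Slfn5 and Slfn2 were measured best, with 214 and 1697 reads (log2 ratio 2.75, interval 2.55 to 2.97) and 71 and 1160 reads (log2 ratio 3.79, interval 3.45 to 4.16). Slfn1 had 0 and 112 reads, at least 31.8-fold higher.

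Higher genes lay side by side on the chromosomes. Of 704 higher genes with a position in GENCODE M21 on GRCm38, 259 had another higher gene within 100 kb (36.8%), against 12.7% of the other measured genes. On chromosome 1, from 173630917 to 174031810, all 9 measured genes were higher, from Ifi209 to Ifi205, with ratios of 1.24 to 5.34. On chromosome 11, from 48861968 to 49096974, the 9 measured genes around Irgm1, Tgtp1, Tgtp2 and Ifi47 were higher, and from 82951349 to 83215154 so were 8 of 9, the Schlafen genes. On chromosome 19, from 34473778 to 34650009, 6 of 8 were higher, among them Ifit1, Ifit2 and Ifit3 and the sterol hydroxylase gene Ch25h. None of these stretches held a lower gene. They are families of gene copies, and their members are not independent of each other.

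Most genes of MHC class I presentation were higher. Of 28 measured genes 19 were higher and 0 lower (median 1.35). Among peptide transport and cleavage genes, Tap1 had 83 reads after 6-OHDA and 1451 after 6-OHDA then En2 (log2 ratio 3.89, interval 3.57 to 4.23), and Psmb8, an immunoproteasome subunit, had 23 and 401 reads (log2 ratio 3.86, interval 3.28 to 4.56). Among the class I heavy chains, H2-D1 had 1067 and 6924 reads (log2 ratio 2.46, interval 2.37 to 2.56), H2-K1 had 246 and 2613 reads (log2 ratio 3.17, interval 2.99 to 3.37) and H2-Q4 had 92 and 2213 reads (log2 ratio 4.35, interval 4.05 to 4.67). The light chain B2m, with 970 and 2238 reads, was at 0.97 (0.86 to 1.08), just short of the rule. The general chaperones Canx and Calr, which also fold other proteins, were at -0.00 (-0.04 to 0.04) and -0.01 (-0.07 to 0.05). Nlrc5, the activator of class I genes, was at 2.77 (2.49 to 3.07). In the class II pathway its activator Ciita had 2 and 34 reads (log2 ratio 3.58, interval 1.89 to 6.96), H2-Ab1 had 9 and 25, at 1.20 (0.09 to 2.52) and not past the rule with 5 added, and Cd74, the invariant chain, had 112 and 190 reads (log2 ratio 0.53, interval 0.18 to 0.88). H2 genes are similar in sequence, and the split of reads among them is uncertain.

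Inflammasome and pyroptosis genes were higher in 14 of 20 measured cases and lower in 1, with a median of 2.47; among the 13 with at least 20 reads after 6-OHDA the counts were 7 and 1. Nlrp3, the sensor that activates caspase 1, had 30 reads after 6-OHDA and 362 after 6-OHDA then En2 (log2 ratio 3.34, interval 2.82 to 3.95). Casp4, the mouse gene of caspase 11, which binds intracellular lipopolysaccharide, had 32 and 363 reads (log2 ratio 3.25, interval 2.75 to 3.84). Casp1 and the pore-forming Gsdmd were at 2.02 (1.15 to 3.10) and 1.06 (0.56 to 1.59); Gsdmd did not pass with 5 added. The adaptor Pycard, which links sensor and caspase, had 30 and 20 reads (log2 ratio -0.80, interval -1.71 to 0.05), and the flagellin receptor Naip5 was the lower gene, with 31 and 16 reads (log2 ratio -1.16, interval -2.16 to -0.27), and not with 5 added. Mlkl, the effector of necroptosis, had 5 and 105 reads (log2 ratio 4.04, interval 2.89 to 5.81).

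**Figure D3:**
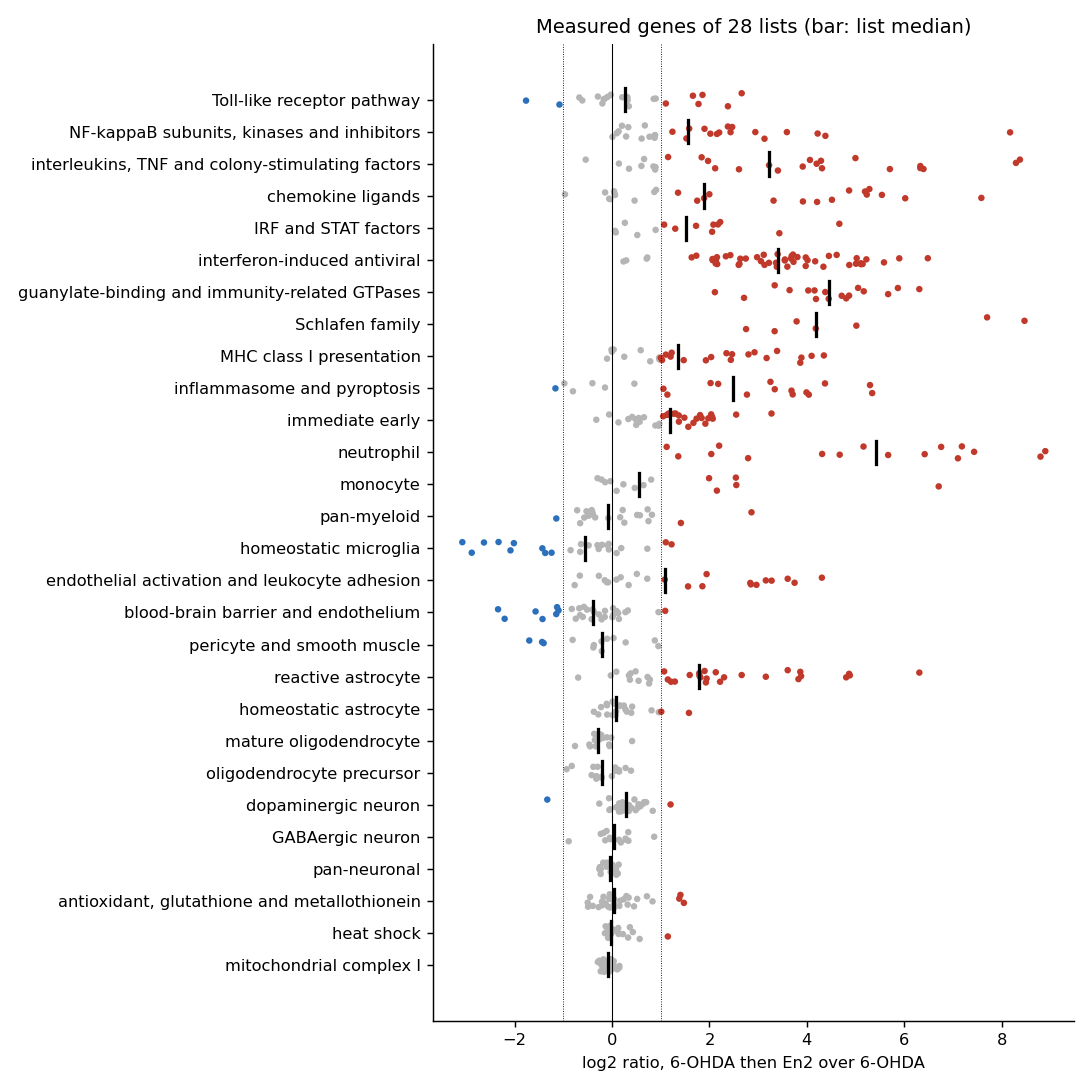
Log2 ratio (horizontal axis) of the measured genes of 28 lists, 1 point per gene, coloured where higher or lower by the rule of size, with a bar at each list's median. Interferon, cytokine and neutrophil lists lie to the right; homeostatic microglia, barrier endothelium and pericytes hold lower genes; neuronal and oligodendrocyte lists lie around 0.

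Neutrophil genes were nearly absent after 6-OHDA and present after 6-OHDA then En2. All 16 measured genes of this list of 32 were higher, but 12 of them had under 20 reads after 6-OHDA and could be measured only because they were high after En2. The other 4 (Hdc, Fpr2, Csf3r and Mmp9), which other cells express too, had ratios of 4.67 (4.06 to 5.43), 2.20 (1.71 to 2.75), 2.04 (1.73 to 2.36) and 1.12 (0.59 to 1.70). S100a9, a chain of calprotectin, had 4 and 760 reads (log2 ratio 7.18, interval 5.97 to 9.22). Trem1, a receptor that amplifies inflammation, had 0 and 240 reads, at least 68.0-fold higher. Retnlg, a resistin-like gene of mature neutrophils, had 0 and 93 reads, and the collagenase gene Mmp8 had 0 and 58. The list summed to 15.1 and 215 CPM. Granule genes made in bone marrow precursors were at or near 0 in both libraries: Elane, Ctsg and Camp had 0 reads in each, Mpo had 2 and 3, Ngp 0 and 4 and Ltf 0 and 2. Ly6g, a surface marker of mouse neutrophils, had 0 and 2.

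Genes of other blood-borne cells were mostly not past the rule. Of 14 measured monocyte genes 5 were higher and 0 lower (median 0.56). The higher genes included Ccr2, Itgal, an integrin chain of leukocytes, at 2.15 (0.86 to 3.98), S100a4, at 1.99 (0.68 to 3.83), and Thbs1, at 2.55 (2.21 to 2.92). Ly6c2 had 6 and 10 reads and Chil3 0 and 7. Lymphocyte genes were nearly absent: of 22 genes 2 could be measured, Ighm with 139 and 369 reads and Lck with 27 and 71 reads, and Cd3e had 0 and 2 reads and Ncr1 0 and 2. Hemoglobin genes, which mark red cells, had ratios from 0.59 (0.38 to 0.81) for Hbb-bt to 1.11 (0.52 to 1.76) for Hba-a2, and the blood list summed to 104 and 170 CPM. The part of neutrophils, monocytes and blood in the higher immune genes was not tested.

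Homeostatic microglial genes were more often lower than higher. Of 24 measured genes 9 were lower and 2 higher, with a median of -0.56 against 0.01 over all measured genes, and all 24 had at least 20 reads after 6-OHDA. Tmem119, a membrane protein that marks resident microglia, had 175 reads after 6-OHDA and 24 after 6-OHDA then En2 (log2 ratio -3.07, interval -3.78 to -2.48). P2ry12, the ADP receptor by which processes move toward injury, had 243 and 67 reads (log2 ratio -2.08, interval -2.50 to -1.70), and its relative P2ry13 had 130 and 30 reads (log2 ratio -2.33, interval -2.97 to -1.77). Gpr34, a lysophosphatidylserine receptor, had 103 and 16 reads (log2 ratio -2.88, interval -3.78 to -2.15). These receptors were each lower by more than 4-fold in the En2 library. The other lower genes included Cx3cr1, Fcrls, Selplg and Trem2, the last at -1.24 (-1.84 to -0.69). Sall1, a transcription factor gene also used for microglial identity, was at -0.09 (-0.24 to 0.06), and Siglech was at -0.07 (-0.36 to 0.23). The higher pair were Il10ra, at 1.22 (0.89 to 1.57), and P2ry6, the UDP receptor of phagocytosis, at 1.10 (0.70 to 1.53). Sparc, which takes most of the list's reads and is also made by astrocytes and endothelium, was at 0.19 (0.16 to 0.22).

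Genes shared by myeloid cells moved less than either of these lists. Of 21 measured pan-myeloid genes 2 were higher and 1 lower (median -0.08), and the list summed to 828 and 695 CPM. Cybb, the catalytic subunit of the phagocyte oxidase, had 41 reads after 6-OHDA and 354 after 6-OHDA then En2 (log2 ratio 2.86, interval 2.41 to 3.38), and Ptprc, which encodes CD45, had 69 and 217 reads (log2 ratio 1.41, interval 1.02 to 1.83). The lower gene was C1qa, a chain of the first complement component, with 750 and 399 reads (log2 ratio -1.14, interval -1.32 to -0.97), and its partner chains C1qb and C1qc were at -0.57 (-0.73 to -0.41) and -0.72 (-0.93 to -0.50). Ctss, Itgam and Tyrobp were at -0.08 (-0.21 to 0.06), -0.35 (-0.65 to -0.04) and -0.48 (-0.87 to -0.10). In punched tissue, fewer cells of a type and less RNA per cell cannot be told apart. Of 5 measured perivascular macrophage genes, Stab1 was lower, with 80 and 42 reads (log2 ratio -1.15, interval -1.74 to -0.61). The others did not pass the rule, and their intervals spanned 0. Mrc1 had 39 and 33 reads, Cd163 25 and 15, Lyve1 26 and 27, and F13a1 27 and 50.

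**Figure D4:**
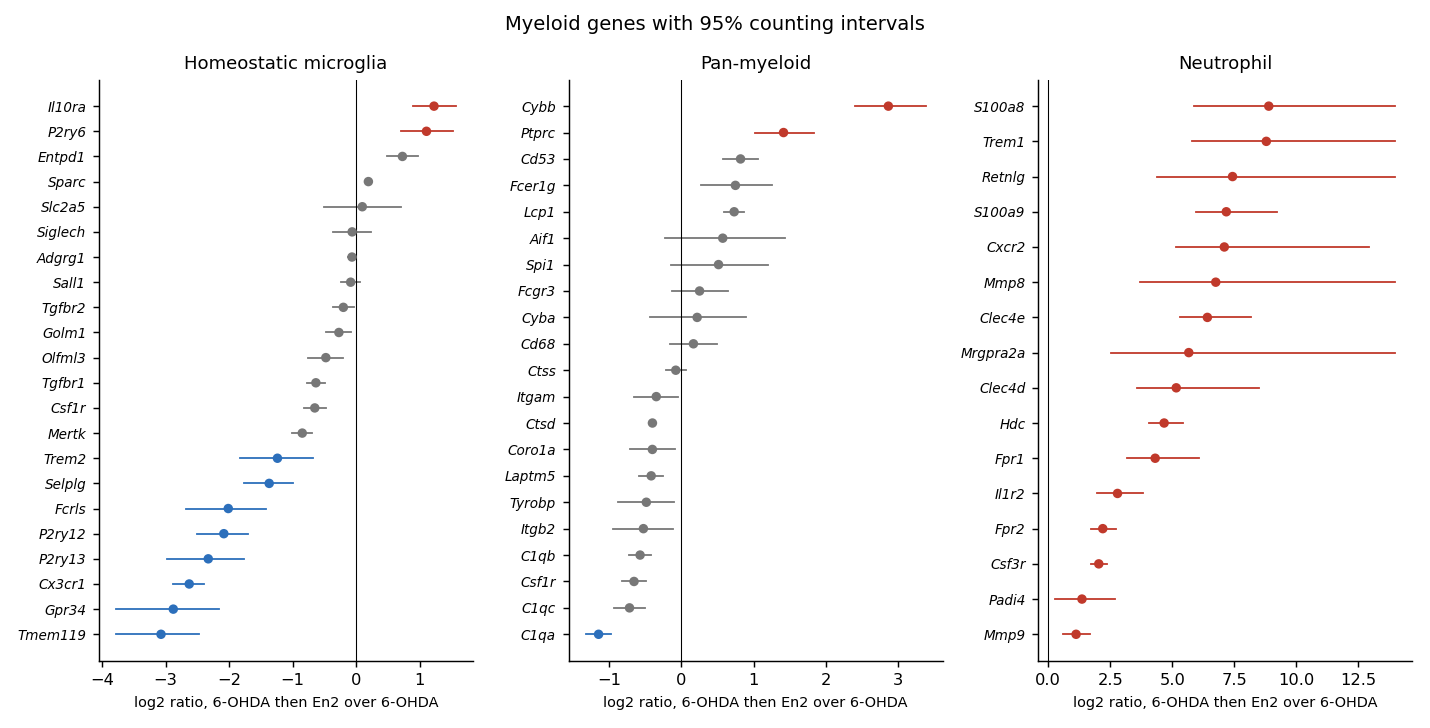
Log2 ratio with its 95% counting interval (horizontal axis) for 22 homeostatic microglial, 21 pan-myeloid and 16 neutrophil genes that were measured; the 3 panels have different scales, and a line that reaches the right edge in the neutrophil panel has no upper end because the 6-OHDA library had 0 reads. Microglial genes reach down to -3.07 for Tmem119, pan-myeloid genes lie around 0, and all neutrophil genes lie above 0.

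Genes of activated microglia and macrophages were higher in 16 of 27 measured cases and lower in 0, with a median of 1.60. Without the genes that stand in other lists too, the counts were 7 of 18 and the median 0.76. Acod1, which makes itaconate, had 32 reads after 6-OHDA and 1821 after 6-OHDA then En2 (log2 ratio 5.58, interval 5.09 to 6.15), and Nos2, the inducible nitric oxide synthase, had 2 and 64 reads (log2 ratio 4.48, interval 2.85 to 7.84). Cd274, which encodes the checkpoint ligand PD-L1, had 190 and 4847 reads (log2 ratio 4.44, interval 4.23 to 4.66). Genes known from disease-associated microglial states had no common direction. Clec7a, a receptor for fungal glucans, was higher, at 1.29 (0.69 to 1.95), and Gpnmb was at 0.99 (0.04 to 2.08), just short of the rule; Apoe was at 0.16 (0.12 to 0.20), Axl at 0.59 (0.48 to 0.71), Lpl at -0.72 (-1.25 to -0.22) and Spp1 at -0.51 (-0.63 to -0.39), and Cst7 had 6 and 7 reads. Among enzymes that make mediators, Ptgs2, the inducible cyclooxygenase, had 183 and 2466 reads (log2 ratio 3.52, interval 3.30 to 3.74) and the prostaglandin E synthase gene Ptges had 230 and 1622 reads (log2 ratio 2.58, interval 2.38 to 2.79). The constitutive enzyme Ptgs1 was at -0.24 (-0.47 to -0.01), and Ptgds, the prostaglandin D synthase of oligodendrocytes and meninges, was lower at 4595 and 2454 reads (log2 ratio -1.14, interval -1.21 to -1.07).

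Complement genes had no common direction: 4 of 23 measured were higher and 2 lower (median 0.00, which became -0.02 on library totals). C1ra and C1s1, the proteases of the first component, were at 3.90 (3.12 to 4.92) and 3.19 (2.49 to 4.06). C3 had 11 and 60 reads (log2 ratio 2.17, interval 1.27 to 3.29), and C3ar1, its anaphylatoxin receptor on microglia, had 377 and 183 reads (log2 ratio -1.27, interval -1.54 to -1.02) and was lower. Among acute phase and iron genes 9 of 17 measured were higher and 1 lower. Lcn2, which binds bacterial siderophores, had 132 and 1895 reads (log2 ratio 3.61, interval 3.35 to 3.88), Saa3 had 9 and 341 reads (log2 ratio 4.94, interval 4.07 to 6.15), and haptoglobin, Hp, had 1 and 130 reads (log2 ratio 6.25, interval 4.29 to 12.10). Slc40a1, the iron exporter ferroportin, was the lower gene, with 228 and 114 reads (log2 ratio -1.23, interval -1.57 to -0.90), while ferritin Fth1 was at -0.06 (-0.08 to -0.04).

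Many adhesion genes were higher, and some barrier genes were lower. Which cells of the punch these reads came from was not tested. Of 23 measured genes of endothelial activation and leukocyte adhesion 12 were higher and 0 lower (median 1.08), and 8 of the 18 with at least 20 reads after 6-OHDA were higher. Icam1, on which leukocytes arrest, had 346 reads after 6-OHDA and 2936 after 6-OHDA then En2 (log2 ratio 2.85, interval 2.69 to 3.02), and Vcam1 had 506 and 2153 reads (log2 ratio 1.85, interval 1.72 to 2.00). The selectins Selp and Sele, which slow rolling leukocytes, had 3 and 80 reads (log2 ratio 4.31, interval 2.90 to 6.81) and 6 and 73 reads (log2 ratio 3.28, interval 2.18 to 4.86). Of 31 measured barrier and endothelial genes 7 were lower and 1 higher, with a median of -0.40. Slco1a4, an organic anion transporter of brain endothelium, had 735 and 291 reads (log2 ratio -1.57, interval -1.77 to -1.37), and Slco2b1 and Slco1c1, the latter a thyroxine transporter, were at -1.43 (-1.82 to -1.06) and -1.13 (-1.38 to -0.88). Sox17, a transcription factor gene of endothelium, had 80 and 20 reads (log2 ratio -2.20, interval -3.02 to -1.51). Ocln of tight junctions and Kdr, the main VEGF receptor, were at -1.10 (-1.53 to -0.69) and -1.14 (-1.45 to -0.85). Cldn5, the dominant claudin, was at -0.67 (-0.94 to -0.41) and the glucose transporter Slc2a1 at -0.66 (-0.73 to -0.58), both below 0 with intervals that excluded 0 but short of the rule. Pecam1 and Tjp1 were at -0.27 (-0.46 to -0.08) and 0.13 (0.03 to 0.22), and the higher gene was Ly6a, at 1.09 (0.97 to 1.21). Among 13 measured pericyte and smooth muscle genes 3 were lower, the channel genes Kcnj8, at -1.43 (-1.95 to -0.96), and Abcc9, at -1.70 (-2.08 to -1.34), and the peptidase gene Anpep, with 21 and 9 reads, while Pdgfrb was at -0.21 (-0.39 to -0.04).

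**Figure D5:**
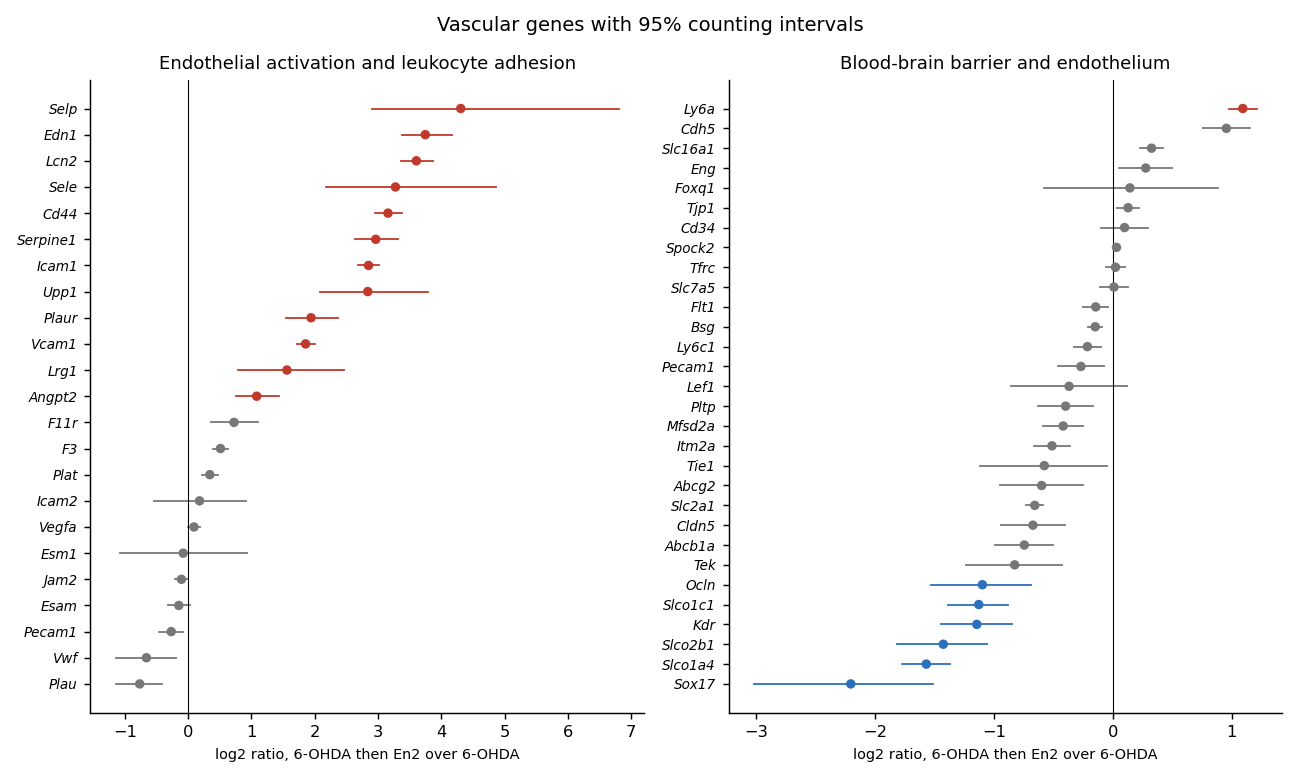
Log2 ratio with its 95% counting interval (horizontal axis) for measured genes of endothelial activation and leukocyte adhesion (left) and of the blood-brain barrier and endothelium (right), on different scales. On the left 12 of 23 genes are higher and none lower; on the right, of the 30 genes drawn, 6 are lower and 1 is higher.

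Astrocyte genes differed by kind. Of 35 measured reactive genes 24 were higher and 0 lower (median 1.79). Many of them also stand in interferon, MHC or acute phase lists, and of the 18 that stand in no other list 8 were higher, with a median of 0.77. Steap4, a metalloreductase, had 90 reads after 6-OHDA and 1508 after 6-OHDA then En2 (log2 ratio 3.83, interval 3.53 to 4.16), Serpina3n, a protease inhibitor, had 2374 and 6459 reads (log2 ratio 1.21, interval 1.14 to 1.28), and Timp1, the inhibitor of matrix metalloproteinases, had 12 and 431 reads (log2 ratio 4.88, interval 4.11 to 5.90). Gfap, the filament gene of reactive astrocytes, had 10086 and 20097 reads (log2 ratio 0.76, interval 0.73 to 0.80) and did not reach the rule, nor did Vim, at 0.37 (0.12 to 0.62), or Nes, at 0.38 (0.23 to 0.54). Among 23 homeostatic astrocyte genes 2 were higher, Gjb2, a connexin also of meninges, 2.99-fold higher (2.58 to 3.48), and Sox9, at 1.01 (0.89 to 1.13). Sox9 was below a log2 ratio of 1 on library totals. The water channel Aqp4, with 6651 and 15204 reads, was at 0.96 (0.92 to 1.00). The glutamate transporter gene Slc1a2 and the glutamine synthetase gene Glul were at 0.16 (0.14 to 0.18) and 0.02 (-0.01 to 0.04), and the list's median was 0.08. Matrix enzymes were higher in 15 of 30 measured cases and lower in 0, with Adamts1 at 1121 and 6395 reads (log2 ratio 2.28, interval 2.19 to 2.37) and Mmp13 at 5 and 116 reads (log2 ratio 4.18, interval 3.04 to 5.95).

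Immediate early genes were higher in 22 of 35 measured cases and lower in 0, with a median of 1.19. Atf3, a stress-induced factor, had 360 reads after 6-OHDA and 1736 after 6-OHDA then En2 (log2 ratio 2.03, interval 1.87 to 2.20), Fos had 1002 and 2641 reads (log2 ratio 1.16, interval 1.06 to 1.27) and Junb had 97 and 475 reads (log2 ratio 2.05, interval 1.74 to 2.39). Dusp2, a phosphatase of immune cells, led the list at 3.27 (2.76 to 3.87). Members that neuronal activity also induces differed among themselves: Egr2, Egr3, Nr4a3, Nr4a1 and Fosb were higher, at 2.55 (2.06 to 3.10), 1.92 (0.85 to 3.29), 1.67 (1.39 to 1.97), 1.27 (1.06 to 1.49) and 1.13 (0.96 to 1.30). Below the rule were Arc at 0.13 (-0.06 to 0.32), Npas4 at 0.57 (0.24 to 0.90) and Egr1 at 0.66 (0.57 to 0.74). Zfp36, whose protein degrades cytokine mRNA, was at 1.84 (1.71 to 1.98).

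Dopaminergic genes were read in both punches, and their ratios were spread a little above 0. Of 30 measured genes 1 was higher and 1 lower, with a median of 0.30. Th, tyrosine hydroxylase, had 519 reads after 6-OHDA and 880 after 6-OHDA then En2 (log2 ratio 0.53, interval 0.37 to 0.69), and Slc6a3, the dopamine transporter through which 6-OHDA enters, had 1820 and 3382 reads (log2 ratio 0.66, interval 0.58 to 0.74). Slc18a2, the vesicular transporter, was at 0.33 (0.23 to 0.43) and Ddc, the decarboxylase, at 0.32 (0.18 to 0.47). These 4 genes lay above 0 with intervals that excluded 0, and none reached the rule. Pitx3, a transcription factor gene of these neurons, had 1 and 4 reads. The higher gene was Lmx1a, with 26 and 71 reads (log2 ratio 1.20, interval 0.55 to 1.92), and the lower gene Foxa2, with 37 and 17 reads (log2 ratio -1.33, interval -2.28 to -0.49). The endogenous Engrailed genes were measured in both libraries: En1 had 188 and 292 reads (log2 ratio 0.40, interval 0.13 to 0.67) and En2 had 162 and 211 reads (log2 ratio 0.15, interval -0.15 to 0.45). The injected protein adds no transcript. With 1 punch per group, a difference in how much nigra each punch held was not tested. GABAergic genes, which mark the neighbouring pars reticulata, were higher or lower in 0 of 14, with Gad1 at 0.14 (0.10 to 0.18) and Pvalb at 0.34 (0.20 to 0.47). Ratios in this list ran from -0.89 (-1.41 to -0.39) for Nkx2-2 to 0.87 (0.75 to 0.98) for Sst. Pan-neuronal genes were higher or lower in 0 of 24, with ratios from -0.26 for Nefl to 0.14 for Uchl1, and oligodendrocyte genes in 0 of 21, with a median of -0.28 and Mbp at -0.33 (-0.34 to -0.32). The oligodendrocyte list summed to 33707 and 27240 CPM.

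Genes of oxidative and protein stress were higher in a few cases, beside 4.66% higher and 1.23% lower over all measured genes. Of 34 measured antioxidant genes 3 were higher and 0 lower (median 0.03). Mt2 and Mt1, metallothioneins that bind zinc and scavenge radicals, had 2047 reads after 6-OHDA and 6693 after 6-OHDA then En2 (log2 ratio 1.48, interval 1.40 to 1.55) and 1478 and 4600 reads (log2 ratio 1.40, interval 1.32 to 1.49), and per length Mt2 was the most abundant higher gene, at 217 and 603 RPKM. Slc7a11, the cystine importer, with 762 and 2333 reads, was 2.6-fold higher (2.4 to 2.83). Other targets of NRF2 did not pass the rule and lay on both sides of 0: Txnrd1 was at 0.72 (0.63 to 0.81), Gsr at 0.45 (0.24 to 0.67), Srxn1 at 0.29 (0.25 to 0.34), Hmox1 at -0.39 (-0.48 to -0.31), Nqo1 at -0.50 (-0.84 to -0.17) and Gclm at 0.04 (-0.03 to 0.12). The mitochondrial superoxide dismutase Sod2, with 4688 and 6884 reads, was at 0.32 (0.27 to 0.37). Of 24 heat shock genes only Hspb1 was higher, at 1.15 (0.82 to 1.48). Complex I subunit genes of mitochondria were higher or lower in 0 of 36, with a median of -0.08, and Ndufs1 and Ndufs3 were at -0.03 (-0.14 to 0.08) and -0.15 (-0.34 to 0.04). Of 36 genes of the p53 response and DNA damage 5 were higher, led by Gadd45b, at 2.32 (2.10 to 2.54), while the p53 targets Cdkn1a and Mdm2 were at -0.09 (-0.16 to -0.02) and 0.11 (0.00 to 0.22).

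Survival and trophic genes included higher members. Of 30 measured BCL2 family and caspase genes 9 were higher and 0 lower (median 0.20). Birc3, an inhibitor of apoptosis that NF-kappaB induces, had 174 and 1575 reads (log2 ratio 2.94, interval 2.72 to 3.18). Its count after 6-OHDA then En2 is displaced by 1 column in the file, and the authors' deposited table gives this gene a fold of 0.826. Bcl2, Bcl2l1 and Bax were at -0.05 (-0.22 to 0.13), -0.16 (-0.23 to -0.09) and 0.03 (-0.29 to 0.35). Of 21 measured trophic factors and receptors 6 were higher. Beside Lif these included Gdnf, a survival factor of dopaminergic neurons, with 15 and 60 reads (log2 ratio 1.74, interval 0.93 to 2.69), Fgf2, at 1.59 (1.02 to 2.23), Artn, with 6 and 22 reads, and the hepatocyte growth factor receptor Met, 2.32-fold higher (1.58 to 3.48). Bdnf and the GDNF receptor genes Ret and Gfra1 were at 0.06 (-0.14 to 0.26), 0.16 (0.07 to 0.26) and 0.26 (0.17 to 0.35).

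The genes with the largest conservative bounds on the lower side were mixed. Beside microglial genes they included Prss22, a serine protease, with 81 reads and 1 read (log2 ratio -5.96, interval -11.89 to -4.05). Slc2a4, the insulin-regulated glucose transporter, had 272 and 70 reads (log2 ratio -2.18, interval -2.59 to -1.81). Inpp5d, the phosphatase SHIP1 of myeloid cells, had 128 and 31 reads (log2 ratio -2.26, interval -2.90 to -1.70), and Havcr2, the checkpoint receptor TIM-3, had 167 and 45 reads (log2 ratio -2.11, interval -2.63 to -1.64). Xist, the RNA of the inactive X chromosome, had 34 and 4 reads, while the Y-linked gene Ddx3y had 2026 and 2585 reads (log2 ratio 0.12, interval 0.03 to 0.20), so that Y-linked reads were present in both libraries.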

How the data were processed

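Total RNA of 2 punched SNpc samples was sequenced. The authors deposited raw read counts per Ensembl gene for each sample, with the categories set aside in counting, and a comparison table with a fold change (ratio) and p-values made from 1 library per side, per the file headers. Bowtie, HTSeq and DESeq 1.8.3 appear, with the build mm10, in the submitters' processing notes, which give no roles; a header names mm9. No source used here says whether counting used strand, so genes that overlap on opposite strands cannot be told apart. Entries left out of the counts were those not aligned, 42.6% for 6-OHDA and 39.6% for 6-OHDA then En2, and those in no feature, 16.4% and 16.9%. In 4 rows a count stood 1 column to the right and was taken from there.

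Symbols came from a gene name table that held 32919 of the 37991 identifiers, and otherwise from the comparison table; 6702 of its symbols are older names. Of 1218 genes in 53 lists 1211 were found. Counts were scaled by the median of ratios, 0.5 was added and the log2 ratio was taken, with a 95% interval from the Clopper-Pearson limits on the fraction of reads in 1 library. For 0 reads the fold was set against a floor of 3 reads per library. Levels per length used GENCODE M21 exon lengths. Tools were Python 3.11.15, scipy 1.17.1, R 4.3.3 and edgeR 4.0.16 (TMM). The steps were tested on simulated counts.

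The genes named are En1, En2, Th, Slc6a3, the 25 genes per direction with the largest bound nearest 0, and of each list the 5 highest, 3 lowest and 5 most read, and members where 5 or fewer pass the rule or have 0 reads. Some genes that enter the counts are not reported here by name. Other list members were named for their known role after their values had been seen. The lists were chosen with earlier results of these data known. With 1 sample per group no difference has a replicate check. Alternatives were library totals, TMM, minimum reads, the added count, the size threshold and protein-coding genes alone.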

Additional observations from a re-analysis of the deposited data

How the results depend on the processing

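No paired analysis was possible because each group had 1 sample, and no replicate could be left out. Against 734 higher and 193 lower genes, a minimum of 100 reads gave 484 and 58, a log2 size of 1.5 gave 482 and 66, and no minimum gave 881 and 296. Asking for at least 20 reads in each library, chosen after seeing the data, gave 460 and 104. These settings change how many genes can pass by construction. Library totals gave 714 and 203, TMM 732 and 193, 5 added to each scaled count 675 and 147, leaving out displaced counts 733 and 193, and protein-coding genes alone, also chosen after seeing the data, 649 and 167. Another scaling shifted all ratios by at most 0.02. Signs were compared for the 1033 measured list genes and leading genes. Of 3891 values of genes past the rule, 0 changed sign under the alternatives run. Ratios of at least 1 in size could not change sign under these settings, so this count is no check. Of 7152 values of other genes 23 changed sign, all with a log2 ratio of at most 0.0234 in size. Over alternatives, 4 of 582 list medians moved: neutrophil genes with at least 20 reads in each library had a median of 2.12, and the other 3 were of the lymphocyte list. At a log2 size of 1.5 the lower barrier and endothelial genes numbered 3. Complement and unfolded protein medians turned from 0.00 and 0.02 to -0.02 and -0.01 on library totals. Depth limits genes of few reads, and the intervals hold counting error only.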
